A study of Mus musculus with 2 samples.

Results

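The sarcomere genes and myogenic regulators are 41 genes of 18193 measured, chosen by name as the filaments, scaffolds and control factors of striated muscle. The choice was made with earlier results of these data known, so shares of all genes set beside member counts are descriptions only. They were read in whole limb buds of C57BL/6 mouse embryos at E10.5, with 1 array of Bhlha9 knockout tissue and 1 array of wild-type tissue. Both groups shared strain, stage, tissue and protocol, and they differed by the loss of Bhlha9, which encodes a basic helix-loop-helix factor of the limb bud. The form of the knockout allele, the number of embryos behind each RNA and the share of fore and hind limb buds are unknown from the sources used here. With 1 array per genotype there was no replicate, so the genotype could not be tested and every difference describes these 2 arrays. The 41 members fall into 18 skeletal, 5 cardiac and 18 shared genes, the last group being used by both kinds of striated muscle.

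Striated muscle contracts by sliding thick filaments of myosin along thin filaments of actin, with troponin on the thin filament answering to calcium and with titin spanning from the Z-disc to the M-band. Skeletal muscle is set up by the basic helix-loop-helix regulators Myf5, Myod1, Myog and Myf6, which bind E-boxes in the promoters and enhancers of muscle genes, often together with Mef2 factors. Limb muscle comes from Pax3-positive precursors that leave the somites and enter the limb bud, and the myotome of the somite, which lies at the base of the bud, differentiates earlier. Heart and skeletal muscle share many sarcomere genes in the embryo, so a transcript named for the heart can also be made in early skeletal muscle.

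Promoter sequences are shown for 5 members that stand for the main patterns below: the regulator Myog, the skeletal light chain Mylpf and the shared troponin Tnnc1, all 2-fold or more higher in the knockout, the atrial light chain Myl7, detected only there, and the cardiac actin Actc1, which was within 2-fold. Each line holds the 250 bases before the annotated start from RefSeq, build GRCm38.p6, read 5′ to 3′. Capitals mark E-boxes (CANNTG, on both strands) and CArG boxes, the sites of serum response factor, and the 2 motifs did not overlap in these lines. The windows are chr1:134289754-134290003 (plus strand) for Myog, chr7:127211358-127211607 (plus strand) for Mylpf, chr14:31208062-31208311 (plus strand) for Tnnc1, chr11:5898783-5899032 (minus strand) for Myl7 and chr2:114052876-114053125 (minus strand) for Actc1.
Myog, regulator of differentiation: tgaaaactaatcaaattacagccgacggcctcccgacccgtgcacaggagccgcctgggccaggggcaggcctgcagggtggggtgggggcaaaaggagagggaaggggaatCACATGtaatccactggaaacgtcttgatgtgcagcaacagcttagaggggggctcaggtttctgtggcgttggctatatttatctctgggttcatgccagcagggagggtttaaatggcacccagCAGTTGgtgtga
Mylpf, fast skeletal light chain: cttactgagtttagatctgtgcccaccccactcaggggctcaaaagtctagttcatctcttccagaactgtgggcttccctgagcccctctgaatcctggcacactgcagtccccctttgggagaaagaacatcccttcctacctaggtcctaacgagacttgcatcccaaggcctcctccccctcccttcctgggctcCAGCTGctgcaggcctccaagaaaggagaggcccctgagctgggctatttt
Tnnc1, slow skeletal and cardiac troponin C: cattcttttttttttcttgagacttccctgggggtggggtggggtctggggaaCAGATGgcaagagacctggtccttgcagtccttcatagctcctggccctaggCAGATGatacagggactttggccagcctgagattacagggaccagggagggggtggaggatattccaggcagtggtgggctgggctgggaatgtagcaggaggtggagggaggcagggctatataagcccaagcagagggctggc
Myl7, atrial light chain: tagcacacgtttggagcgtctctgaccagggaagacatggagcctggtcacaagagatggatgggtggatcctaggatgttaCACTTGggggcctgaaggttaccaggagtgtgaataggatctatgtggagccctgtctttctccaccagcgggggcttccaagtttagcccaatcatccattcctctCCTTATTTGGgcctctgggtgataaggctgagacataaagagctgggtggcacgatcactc
Actc1, cardiac and embryonic skeletal actin: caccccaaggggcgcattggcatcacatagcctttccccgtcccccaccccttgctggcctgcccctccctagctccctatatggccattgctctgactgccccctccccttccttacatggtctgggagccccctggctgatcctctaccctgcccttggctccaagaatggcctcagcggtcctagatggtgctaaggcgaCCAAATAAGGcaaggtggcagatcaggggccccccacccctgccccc

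RefSeq promoters matched 33 of the 41 members, with 43 annotated starts. An E-box was found in 33 of the 43 windows (76.7%) and in 66.2% of all 32851 promoter windows of the same length, so this short motif was common throughout. At least 2 E-boxes lay in 34.9% of the member windows and in 31.8% of all windows. The Myog window held an E-box 138 and another 12 bases before the start, Tnnc1 had them at 197 and 145 bases, Mylpf at 51 and Myl7 at 168, and none was found in the Actc1 window. CArG boxes were found in 8 of the 43 member windows (18.6%) against 1.47% of all windows. They lay in the windows of Actc1, Acta1, Myl3, Ldb3 at both of its starts, Myl7, Nebl and Myom1. The Ldb3 windows overlap and hold the same CArG box, so 1 site counts in both. Of the 14 windows of 10 members whose ratio was measured within 2-fold, 5 held a CArG box, both Ldb3 windows included. Among the 18 windows of 14 members at least 2-fold higher, 2 held a CArG box. Windows of the same gene can overlap, so these are not counts of genes or of separate sites. The MEF2 site, searched by a strict consensus on both strands, occurred in 3 member windows, those of Casq2, Myh8 and Ttn, or 6.98% against 2.92% of all windows. A site that departs from that consensus by a single base was not counted, so a window without a match, such as that of Myog, may still hold a site. These matches describe letters in a window, and the promoters of Actn3, Myf6, Myod1, Myom2, Neb, Tcap, Tnni2 and Tnnt3 were not used here.

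The values are MAS 5.0 signals on a linear scale. A signal at or under the 40th percentile of its array, 41.8 on the knockout array and 41.2 on the wild-type array, was treated as not detected and raised to that floor. The log2 ratio is knockout over wild type. Where only the knockout signal was above its floor, the ratio is only a lower bound, given as at least N-fold. Each gene was read by its brightest probe set, and genes were counted at 2-fold. Among 5440 genes, disagreement between the 2 brightest detected probe sets gave an SD of 0.28 for a log2 ratio, which was 0.50 where the pair's lowest signal was under 100 and 0.24 where it was 100 or more. This error is that of the measurement alone and holds nothing of the spread between embryos or dissections. The 2% trimmed mean of each array was 500.003, which reflects a common scaling and does not show that the arrays are comparable. Median signals were 77.3 on the knockout array and 79.6 on the wild-type array.

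The targeted gene did not check the labels, because its probe set read 1.70 on the knockout array and 7.87 on the wild-type array, both below detection. The limb mesenchyme markers that define the tissue were present: all 14 were detected on at least 1 array. Of these, 6 were lower and 0 higher by 2-fold or more in the knockout. The shares over all genes detected on at least 1 array were 2.65% lower and 4.15% higher. The summed signal of the limb mesenchyme list was 24250 on the knockout array and 41984 on the wild-type array. Transcripts of tissues outside the limb bud stood on the other side. All 9 measured liver markers and 8 of 11 neural tube markers were higher by 2-fold or more on the knockout array, with summed signals of 33922 and 3302 there, against 348 and 483 on the wild-type array. In each of these lists, 7 genes were detected on the knockout array only, which fixes the sign of their ratios. The part of tissue from outside the limb bud in the muscle values below was not tested.

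Some contractile genes and myogenic factors were higher on the knockout array, with the largest measured ratios in Tnnc1, Myl4, Mylpf, Tnnc2, Tnnt2, Myog and Myf5 in that order, while actins, desmin and Mef2c were within 2-fold. None of the members with a ratio was 2-fold lower. Of all members, 20 were detected on both arrays, 13 on the knockout array only, 0 on the wild-type array only and 8 on neither. Among the 20 detected on both, 7 were higher by 2-fold or more and 0 lower, whereas 2.87% of all genes detected on both arrays were that much higher and 2.51% that much lower. Their median log2 ratio was 0.36, against -0.01 for all such genes, and 16 were positive and 4 negative, where 49.1% of all such genes were positive. A further 8 members passed 2-fold as lower bounds, which brings the count to 15, and 5 others had bounds under 2-fold. The background for the wider count was 4.15% higher and 2.65% lower among 13088 genes detected on at least 1 array, and 7.35% of those were detected on the knockout array only, against 4.85% on the wild-type array only. The 13 members seen on the knockout array only could not have had a negative ratio, so their direction is fixed by how they were detected. Members were also chosen with earlier results of these data known, so the shares of all genes give no independent comparison. Scaling by loess changed the background from 543 higher and 347 lower genes to 638 and 260, and then 15 members were higher, 14 of them the same genes, and 0 lower. In such bulk tissue, a different number of muscle cells and a different amount of RNA per cell cannot be told apart.

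**Figure D1:**
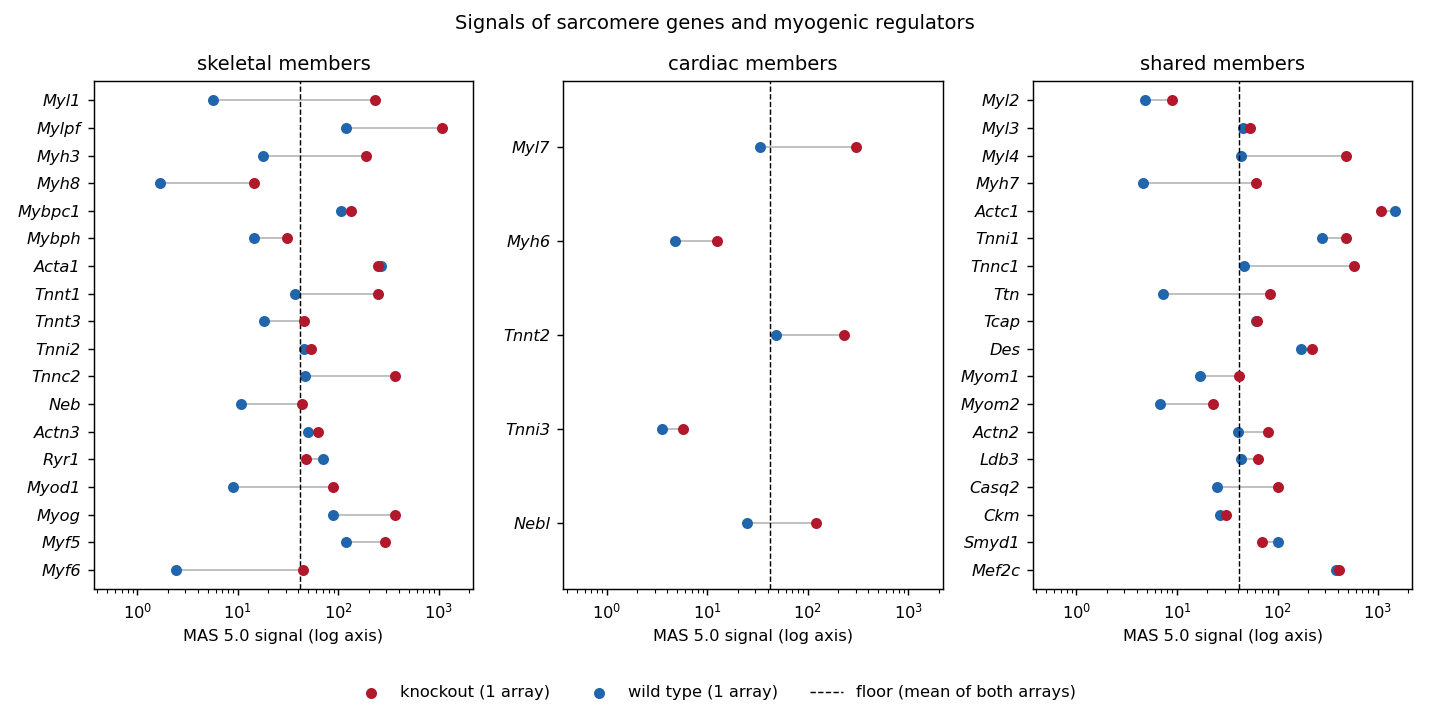
MAS 5.0 signal (log axis) of the 18 skeletal, 5 cardiac and 18 shared members on the knockout array (red) and the wild-type array (blue), 1 array each, with a grey line joining the pair and a dashed line at the floor. Long lines that cross the floor, such as those of Myl1 (229.6 knockout, 5.60 wild type), Myl7 (301.4 knockout, 33.7 wild type) and Tnnt1 (249.96 knockout, 36.7 wild type), stand beside short lines well above it, such as those of Acta1 and Mef2c.

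Among the myogenic regulators, Myog, which drives myoblasts into differentiation, read 369.3 on the knockout array and 89.1 on the wild-type array, a log2 ratio of 2.05 or 4.15-fold. Myf5, the earliest of the 4 factors in the somite, read 290.4 on the knockout array and 119.0 on the wild-type array, a log2 ratio of 1.29. Both were detected on both arrays and differed by more than the measurement error, although a floor raised to the 60th percentile brought the ratio of Myog to a bound of 1.13 and that of Myf5 to a bound of 0.79. Myod1, the determination factor, read 89.4 on the knockout array and 9.04 on the wild-type array, so it was at least 2.17-fold higher. Its other probe set was below detection, at 7.61 on the knockout array and 0.639 on the wild-type array. Myf6, the last of the 4 factors listed, read 44.2 on the knockout array and 2.41 on the wild-type array. This leaves a bound of only 1.07-fold because the knockout signal was barely above its floor. Of the 4 factors, Myog and Myf5 were thus measured on both arrays, and the detection of Myod1 and Myf6 on the knockout array only fixes the sign of their bounds.

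The regulators shared with the heart were within 2-fold by their brightest probe sets. Mef2c, a MADS-box partner of the myogenic factors in skeletal and heart muscle that other tissues also express, read 407.9 on the knockout array and 382.6 on the wild-type array, a log2 ratio of 0.09. All 5 of its probe sets were detected on both arrays, with ratios from -0.03 to 0.50. Smyd1, a methyltransferase and chaperone partner of myosin in striated muscle, gave a mixed reading from 4 detected probe sets. The brightest, of a kind prone to cross-hybridisation, read 69.4 on the knockout array and 102.2 on the wild-type array, a ratio of -0.56, whereas the other 3 were positive and 2 of them were detected on the knockout array only.

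Of 8 detected thick filament genes, 5 were higher by 2-fold or more (against 4.15% of all detected genes), 2 of them detected on both arrays. Mylpf, the regulatory light chain of fast skeletal muscle, read 1068 on the knockout array and 118.9 on the wild-type array, 8.98-fold higher and a log2 ratio of 3.17. Among the skeletal sarcomere genes it alone combined a 2-fold difference with a wild-type signal of at least 2 times the floor. Myl1, the alkali light chain of fast muscle, read 229.6 on the knockout array and 5.60 on the wild-type array, at least 5.57-fold higher. The embryonic myosin heavy chain Myh3 read 188.4 on the knockout array and 17.7 on the wild-type array, at least 4.57-fold higher. The perinatal heavy chain Myh8, which is used later, was below detection on both, at 14.3 on the knockout array and 1.68 on the wild-type array. The myosin binding protein Mybpc1, of slow muscle, read 133.4 on the knockout array and 106.7 on the wild-type array, a ratio of 0.32, and its other probe sets gave 0.15 and -0.48. Mybph, a relative of it, was under the floor on both arrays.

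Among the shared thick filament genes, Myl4 stood apart from the ventricular light chains. Myl4, an alkali light chain of the atrium and of embryonic skeletal muscle, read 477.6 on the knockout array and 43.1 on the wild-type array, 11.1-fold higher. The wild-type signal was only 1.05 times the floor, so the size of this fold rests on a value near the limit of detection, and its ratio was a bound of 1.505 when the floor was raised to the 60th percentile, against 3.47 as reported. The other Myl4 probe set was below detection, at 5.84 on the knockout array and 5.26 on the wild-type array. Myl3, the light chain of the ventricle and slow muscle, read 53.7 on the knockout array and 45.1 on the wild-type array, a ratio of 0.25, and Myl2, its regulatory counterpart, was under the floor on both arrays. The heavy chain Myh7, of slow muscle and ventricle, read 60.8 on the knockout array and 4.54 on the wild-type array, a bound of 1.48-fold. A pair of further probe sets carries the symbols of both Myh7 and Myh6 and was left out by the choice of single-symbol probe sets. Both were under the floor on both arrays.

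Of 10 detected thin filament genes, 4 were higher by 2-fold or more (against 4.15% of all detected genes), 3 of them detected on both arrays. Troponin C is the calcium sensor, and both of its genes were among them. Tnnc1, of slow skeletal and cardiac muscle, read 580.0 on the knockout array and 46.1 on the wild-type array, 12.6-fold higher, the largest measured ratio of the 20 members detected on both arrays. Tnnc2, of fast skeletal muscle, read 369.3 on the knockout array and 46.8 on the wild-type array, 7.90-fold higher. As with Myl4, both wild-type signals were close to the floor, at 1.12 and 1.13 times its value. With a floor raised to the 60th percentile, the log2 ratio of Tnnc1 was a bound of 1.78, against 3.65 as reported, and that of Tnnc2 a bound of 1.13, against 2.98. Troponin T anchors the complex to tropomyosin. Its slow skeletal gene Tnnt1 read 249.96 on the knockout array and 36.7 on the wild-type array, at least 6.07-fold higher, while the fast skeletal gene Tnnt3 read 45.4 on the knockout array and 18.4 on the wild-type array, a bound of 1.10-fold.

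Troponin I, the inhibitory subunit, was closer between the arrays. Tnni1, the form of slow muscle and of the embryonic heart, read 479.9 on the knockout array and 277.5 on the wild-type array, a log2 ratio of 0.79 that lies past the measurement error and short of 2-fold. Tnni2, of fast muscle, read 53.0 on the knockout array and 45.6 on the wild-type array, a ratio of 0.22. Both sarcomeric actins were within 2-fold. Actc1, the cardiac actin that early skeletal muscle also uses, read 1067 on the knockout array and 1481 on the wild-type array, a ratio of -0.47 that remained negative under all 9 alternatives. Acta1, the skeletal actin, read 249.6 on the knockout array and 265.0 on the wild-type array, a ratio of -0.09, which turned to 0.05 with quantile and 0.06 with loess normalization. The actin genes are close paralogues, and the smooth muscle actins Acta2 and Actg2 were lower on the same array, at 1858 and 61.0 on the knockout array and 6711 and 310.3 on the wild-type array. Their part in the sarcomeric actin signals was not tested. Neb, the ruler of the skeletal thin filament, read 43.7 on the knockout array and 10.6 on the wild-type array, a bound of 1.06-fold.

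**Figure D2:**
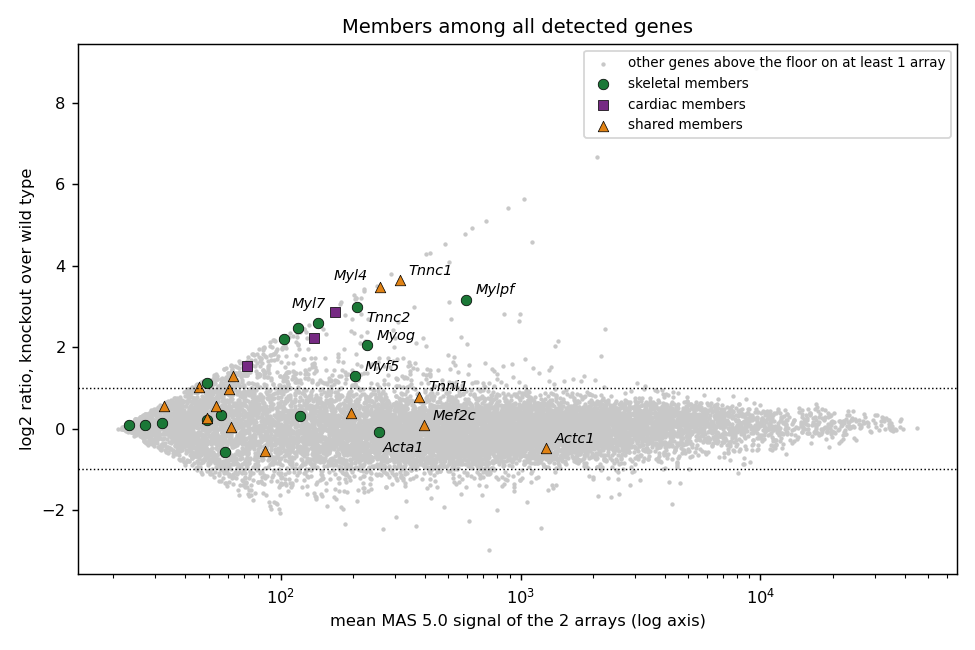
Log2 ratio of knockout over wild type against the mean signal of the 2 arrays (log axis) for all genes detected on at least 1 array (grey) and for the 16 skeletal, 3 cardiac and 14 shared members detected, with dotted lines at 2-fold. The upper left edge of the cloud is where wild-type signals sit at or near the floor, and Tnnc1 (3.65), Myl4 (3.47) and Tnnc2 (2.98) lie along it, whereas Mylpf (3.17), Myog (2.05) and Myf5 (1.29) lie inside it.

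The cardiac members split by gene. Myl7, the regulatory light chain of the atrium, read 301.4 on the knockout array and 33.7 on the wild-type array, at least 7.32-fold higher. Tnnt2, the cardiac troponin T that embryonic skeletal muscle expresses for a time, read 227.5 on the knockout array and 48.4 on the wild-type array, 4.70-fold higher. A further probe set, of a kind prone to cross-hybridisation, read 196.0 on the knockout array and 1.70 on the wild-type array. The remaining probe set was under the floor on both, at 6.18 on the knockout array and 7.86 on the wild-type array. Raising the floor to the 60th percentile brought the ratio of Tnnt2 to a bound of 0.43, against 2.23 as reported. Nebl, the nebulin relative of the cardiac Z-disc, read 119.2 on the knockout array and 25.0 on the wild-type array, at least 2.89-fold higher. Its other probe sets were below detection on both. Myh6, the atrial heavy chain, and Tnni3, the mature cardiac troponin I, were under the floor on both arrays.

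Other heart markers stood on both sides. Among the 10 detected genes of that list that are not members, 3 (30%) were higher and 2 lower by 2-fold or more, 7 ratios were positive and 3 negative, and the median was 0.72, where the background was 4.15% higher and 2.65% lower. Of the 7 positive ratios, 3 belong to genes detected on the knockout array only, whose sign is fixed by how they were detected. The summed signal of its 18 measured genes was 1013 on the knockout array and 1121 on the wild-type array, and without Tbx20, left out after its value was seen, it was 896.4 on the knockout array and 507.7 on the wild-type array. The cardiac regulator Nkx2-5, the natriuretic peptide genes Nppa and Nppb, the atrial and trabecular ligand gene Bmp10 and the coactivator gene Myocd were among the 8 of 18 under the floor on both arrays. The transcription factor genes Hand1 and Gata5 had ratios of 0.82 and 0.72, the myosin binding protein gene Mybpc3 0.25 and the calcium channel gene Ryr2 -0.54, and Sln, encoding sarcolipin, was detected on the knockout array only, at 67.6 there and 24.4 on the wild-type array. Tbx20, a T-box factor of the heart, read 116.3 on the knockout array and 613.1 on the wild-type array, 5.27-fold lower. The higher genes were Irx4, Gata4 and Corin, the last at 185.0 on the knockout array and 1.44 on the wild-type array, and the other lower gene was Ankrd1. Gata4 and Corin were detected on the knockout array only and Ankrd1 on the wild-type array only, so their ratios are bounds. Irx4 read 88.6 on the knockout array and 41.8 on the wild-type array, close to the floor of 41.2. The names Gata4, Gata5, Mybpc3, Ryr2, Sln, Corin and Ankrd1 were chosen after their values were seen.

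Of 7 detected scaffold genes of the Z-disc and M-band, 2 were higher by 2-fold or more, against 4.15% of all detected genes. The 2 were Nebl and Ttn, both as lower bounds. Ttn, the spring of the sarcomere, read 84.1 on the knockout array and 7.27 on the wild-type array, at least 2.04-fold higher. Of its 6 probe sets, 2 more were detected on the knockout array only, with bounds of 1.43-fold and 1.28-fold. The remaining Ttn probe sets were below detection on both arrays. Actn2, the Z-disc crosslinker of striated muscle, read 81.2 on the knockout array and 40.01 on the wild-type array, a bound of 1.97-fold just short of 2-fold. Ldb3, a PDZ and LIM protein of the Z-disc, read 64.2 on the knockout array and 43.4 on the wild-type array, a ratio of 0.57. Des, the muscle intermediate filament desmin, read 222.3 on the knockout array and 170.3 on the wild-type array, a ratio of 0.38. Tcap, which caps titin, and Actn3, the fast-fibre actinin, had ratios of 0.05 and 0.33. The M-band genes Myom1 and Myom2 were under the floor on both arrays, Myom1 at 41.04 on the knockout array, just below it.

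Of 3 genes of calcium handling and energy, 2 were detected and 1 was higher by 2-fold or more, against 4.15% of all detected genes. Casq2, the calcium store protein of heart and slow muscle, read 101.8 on the knockout array and 25.1 on the wild-type array, at least 2.47-fold higher, from a probe set shared among transcripts of more than a single gene by its suffix. Ryr1, the calcium release channel of skeletal muscle, read 47.5 on the knockout array and 70.0 on the wild-type array by its brightest probe set, a ratio of -0.56. Its other probe set ran the opposite way, at 55.1 on the knockout array and 6.30 on the wild-type array. Ckm, the muscle creatine kinase of mature fibres, was under the floor on both arrays.

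**Figure D3:**
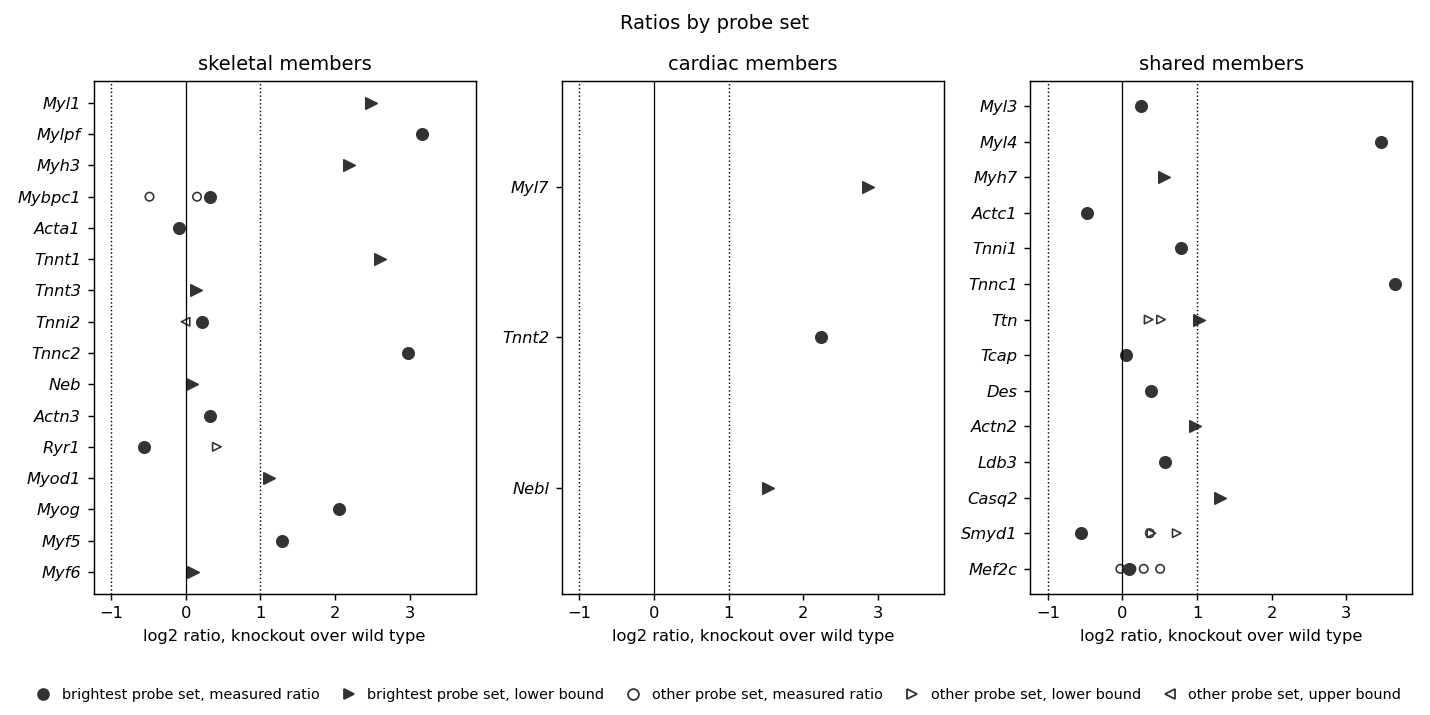
Log2 ratio of knockout over wild type for every detected probe set of each member, with the brightest filled and the others open, circles for measured ratios, triangles pointing right for lower bounds, pointing left for an upper bound and dotted lines at 2-fold. Mef2c and Mybpc1 have all of their probe sets within 2-fold, and Ryr1 and Smyd1 have probe sets on both sides of 0. The other detected probe sets of Tnnt2 and Ldb3 lie under their filled points.

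By class, 8 of 16 detected skeletal members, 3 of 3 cardiac and 4 of 14 shared members were higher by 2-fold or more, lower bounds included, and 4, 1 and 2 of these were detected on both arrays. Of all genes detected on at least 1 array, 4.15% were that much higher, and of all genes detected on both arrays, 2.87%. The medians over members detected on both arrays were 0.33 for 9 skeletal and 0.32 for 10 shared genes, and Tnnt2 was the sole cardiac member of that kind. Within each of the skeletal and shared classes the ratios ran from -0.56 to above 3, so the classes overlapped over nearly their whole range. Of the 10 members with a wild-type signal at least 2 times the floor, 3 were 2-fold higher, namely Mylpf, Myog and Myf5, and 7 were within 2-fold: Acta1, Actc1, Des, Mef2c, Mybpc1, Smyd1 and Tnni1. The share of all genes under this filter was not computed. The other 4 members that were 2-fold higher and detected on both arrays, Myl4, Tnnc1, Tnnc2 and Tnnt2, all had wild-type signals under 1.2 times the floor. Raising the floor to the 60th percentile left 5 of 16 detected members past 2-fold, beside 1.64% of all detected genes. These were Mylpf, Myog, Myl4, Tnnc1 and Tnnc2. Probe sets of the same member did not always have the same sign. Of the 8 members with 2 or more detected probe sets, 4 had none of opposite sign, namely Ldb3, Tnni2, Tnnt2 and Ttn, and the other 4, Mef2c, Mybpc1, Ryr1 and Smyd1, had both signs. In Tnni2 the second probe set was barely detected on the wild-type array only and was placed at 0.

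Among other striated muscle genes few passed 2-fold. The list held 46 measured genes of which none is a member, 22 were detected, and 1 (4.55%) was higher and 1 lower by 2-fold or more, a share near the background of 4.15%. The higher gene was Pgam2, a muscle glycolytic enzyme, detected on the knockout array only at 95.8 and named after its value was seen. The lower gene was Dysf, of membrane repair, at 68.6 on the knockout array and 205.3 on the wild-type array. The list had 8 genes detected on the knockout array only and 1 on the wild-type array only, and its median over all 22 was 0.25. Among the 13 genes detected on both arrays the median was -0.04, with the tropomyosins Tpm2 and Tpm3, which non-muscle cells also use, at -0.80 and -0.52, the tropomyosin Tpm1, named after its value was seen, at 0.48 and the LIM protein gene Fhl1 at 0.67. A set of 24 genes, among them the adult heavy chains Myh1, Myh2 and Myh4 and myoglobin, was under the floor on both arrays.

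Genes of muscle cell differentiation and of the neuromuscular junction were mostly positive and within 2-fold. Among 11 detected genes, 0 were higher and 1 lower by 2-fold or more, where the background was 4.15% higher and 2.65% lower. There were 9 positive and 2 negative ratios, with a median of 0.71. Of the positive ratios, 2 belong to genes detected on the knockout array only, whose sign is fixed by how they were detected. The RNA-binding protein gene Rbm24, which controls muscle splicing, had a ratio of 0.996, the cofactor gene Vgll2 0.94 and the transcription coactivator gene Eya1 0.91. The lower gene was Chrna1, the acetylcholine receptor subunit, at 46.6 on the knockout array and 102.0 on the wild-type array. The fusion gene Mymk was under the floor on both arrays, and Mymx was detected on the knockout array only, at 57.2.

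Markers of muscle precursors stood on both sides of 0, with 5 of 7 detected genes positive, beside 6608 of 13088 over all detected genes. Pax3, the factor of the migrating precursors and the dermomyotome, read 744.2 on the knockout array and 490.0 on the wild-type array, a ratio of 0.60. Lbx1, which marks precursors on their way into the limb, ran the other way, at 135.9 on the knockout array and 235.9 on the wild-type array, a ratio of -0.80. Met and Cxcr4, receptors that guide migration, had ratios of 0.80 and 0.87, and Pax7 was under the floor on both arrays. The sole gene of this list past 2-fold was Tcf21, also a gene of other mesoderm, at 1.73. In the list of somite and sclerotome markers, 2 of 9 detected genes were higher and 0 lower by 2-fold or more, with summed signals of 4741 on the knockout array and 4238 on the wild-type array. Of 6 detected smooth muscle markers, 4 were lower and 0 higher by 2-fold or more, with summed signals of 3011 on the knockout array and 8915 on the wild-type array. Endothelial markers had 2 of 8 genes lower and 0 higher. Over all genes detected on at least 1 array, 4.15% were higher and 2.65% lower by 2-fold or more. Whether myotome, heart or other tissue next to the limb bud was part of either sample was not tested.

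**Figure D4:**
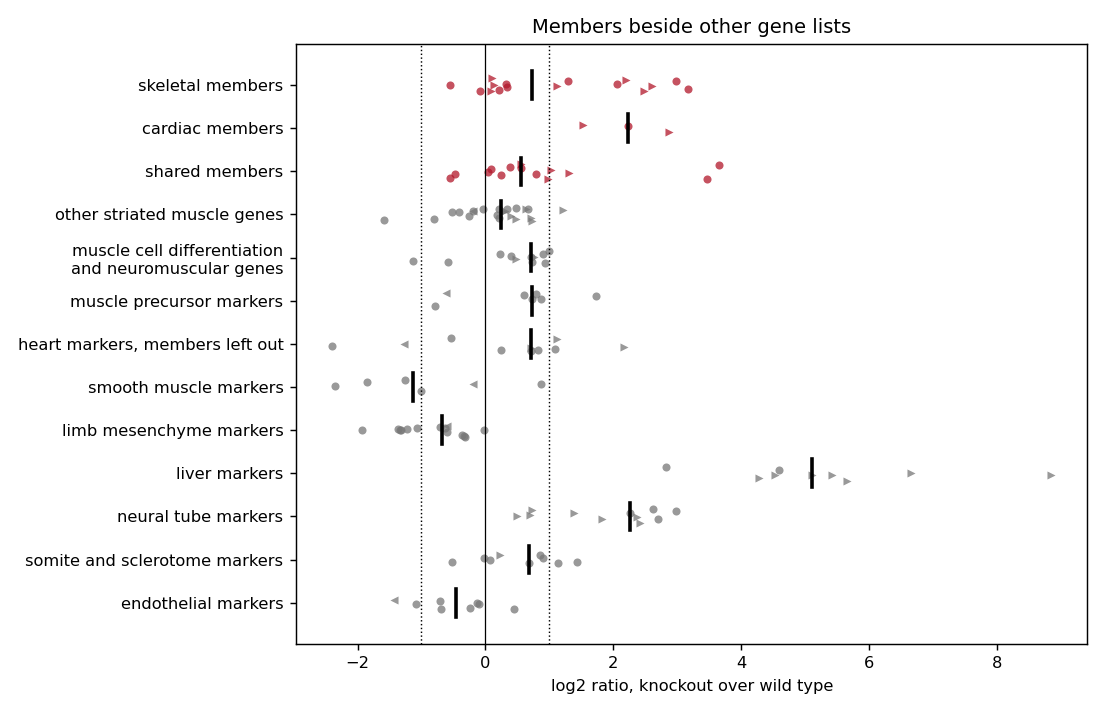
Log2 ratio of knockout over wild type for the detected genes of the member classes (red) and of 10 other lists (grey), with members left out of the heart list. Circles are measured ratios, triangles pointing right are lower bounds, triangles pointing left are genes detected on the wild-type array only, whose true ratio lies at or below the point, black bars are medians and dotted lines mark 2-fold. Skeletal and shared members spread from -0.56 to beyond 3, liver markers all lie above 2-fold, and limb mesenchyme markers all lie below 0.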

How the data were processed

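Total RNA (200 ng) was labelled with a 3′ IVT kit and hybridised to Mouse Genome 430 2.0 arrays, per the labels' protocols. The authors deposited MAS 5.0 signal intensity values on a linear scale, per the series' design text and the submitters' processing notes. Of 45037 probe sets that are not controls, 34945 carried a single symbol in the platform annotation, and 34741 of these matched RefSeq genes (GRCm38.p6) by Entrez identifier. All 41 members matched. The brightest single-symbol probe set stood for a gene. Signals were floored at the 40th percentile of each array, and no p-value was computed for 1 array per genotype. The number of arrays limits the precision. Alternatives were median centring, quantile and cyclic loess normalization, floors at the 20th and 60th percentiles, no floor with a pseudocount of 32, the median, unique or dimmest probe set, and thresholds of 1.5-fold and 3-fold. All members were named; of other lists, up to 4 genes detected on both arrays whose ratios were largest in size, plus Pax3, Pax7 and Lbx1, and any others as examples chosen after their values were seen. Members and lists were chosen with earlier results of these data known. The steps were tested on simulated data. Python 3.11.15, numpy 2.4.6, pandas 2.3.3, matplotlib 3.10.9, R 4.3.3 and limma 3.58.1 were used.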

Additional observations from a re-analysis of the deposited data

How the results depend on the processing

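The count of higher members moved with the floor by more than 1.5 times, and not with scaling or the choice of probe set. It was 15 of 33 detected members as reported, beside 4.15% of all detected genes. With a floor at the 20th percentile it was 23 of 40 detected members, beside 11.3% of all detected genes. With a floor at the 60th percentile it was 5 of 16 detected members, beside 1.64% of all detected genes. At thresholds of 1.5-fold and 3-fold it was 17 and 10, beside 11.2% and 1.34% of all detected genes. Under each of the 11 alternatives, 0 members were lower. The median over detected members was 0.79 as reported and 1.29 for a floor at the 20th percentile, where the skeletal median was 1.67 against 0.72 as reported. The cardiac median, 2.23 over 3 genes as reported, was 0.64 for a floor at the 60th percentile and 1.41 with a pseudocount of 32 and no floor. Fewer members are detected with a higher floor, and bounds shrink with it by construction. Of the 15 members, 5, namely Mylpf, Myog, Myl4, Tnnc1 and Tnnc2, stayed past 2-fold under all 9 that changed scaling, floor or probe set. Ttn was past 2-fold under 5 of its 8. Ryr1 and Smyd1 were negative under 7 and 5 of 8 and positive under other choices of probe set, and Acta1 was positive with quantile and loess normalization only. No paired analysis was possible because each group is a single array.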
